A study of Homo sapiens with 2 samples.

Results

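The genes described here are 10 secretory granule proteins and neuropeptides, SCG2, SCG3, SCG5, CHGA, CHGB, VGF, PCSK1, CPE, CRH and GAL. The cells were LN229 per the labels, a human glioblastoma line in long use, grown in DMEM with 10% serum. They held either pSUPER.neo-miR-127-3p, for overexpression of the microRNA miR-127-3p, or pSUPER.neo as the control, so the vector was shared. Each group was 1 Affymetrix array, and whether either culture was a clone or a pool is not given in the sources used here. The members were found as all probe sets annotated to exactly 1 of the 10 symbols. This gave 12 of 54675 probe sets for 9 members, and the annotation table used paired no probe set with PCSK1 alone, so PCSK1 was not analysed here. The members were chosen by gene family and selected on their measured signals and log2 ratios between these same arrays, so the values below are a description and no test is given. With 1 array a group no p-value, error across cultures or replicate check exists for any difference.

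Peptide hormones and neuropeptides are made as longer precursors, packed at the trans-Golgi into dense-core granules and released when the cell is stimulated. Granins, an acidic protein family that includes the chromogranins and secretogranins, take part in forming the granule and are themselves cut into peptides. Prohormone convertases such as PCSK1 cut the precursors, and carboxypeptidase E, the product of CPE, trims the basic residues left at the cut. This regulated route is typical of neurons and endocrine cells, and secretion in other cells is largely constitutive.

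The microRNA itself was not among the values used. Its mature sequence is shown because it is the difference between the cultures by design. It is 22 bases long and lies at chr14:100883035-100883056 on the + strand of GRCh38.p14, per RefSeq, with the seed, bases 2 to 8, in capitals.
miR-127-3p: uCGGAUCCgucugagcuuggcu
No 3′ UTR sequence was used here, so sites for this seed in the members' transcripts were not searched.

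The granule proteins SCG5, SCG2, VGF and CHGB and the stress peptide CRH were brighter with the microRNA, and the neuropeptide gene GAL was brighter in the control. Of the 7 members above the signal filter, SCG5, CRH, SCG2, VGF and CHGB were higher by 2-fold or more with the microRNA, which is 5 genes. GAL alone was lower by 2-fold or more, and CPE stayed within 2-fold. GAL passed the filter only through its control signal, which fixed its direction. SCG3 and CHGA were below the filter. The filter kept a probe set if its log2(signal + 1), averaged over the arrays, exceeded the median probe set, near a signal of 83.0, and a gene stands for its brightest such probe set. Of all 11985 genes that passed it, 607 (5.06%) were higher and 1039 (8.67%) lower by that much. Nothing is read from the members' counts against these shares, since the members were chosen with this contrast known. The median log2 ratio of the 7 members was 1.67, with all genes centred at 0, and it was 1.68 where signals under an array's median were raised to that median. Epithelial markers differed along the same pair of arrays, with a summed signal of 7483 with the microRNA and 92925 in the control over 13 genes, and their part in the differences of the members was not tested. The member nearest to 2-fold from outside was CPE, with a log2 ratio of -0.58, and the nearest from inside was CHGB, with 1.26.

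**Figure D1:**
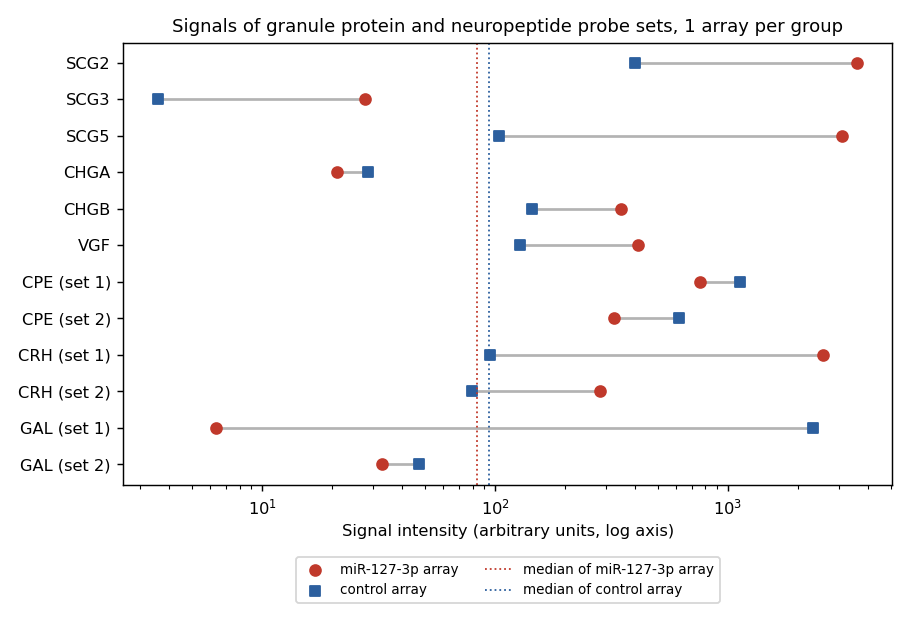
Signal intensity in arbitrary units on a log axis for the 12 probe sets of the 9 measured members, with a circle for the miR-127-3p array and a square for the control array, and dotted lines at the median signals of 83.3 and 93.9. SCG2, SCG5, CRH, VGF and CHGB lie to the right on the miR-127-3p array, while GAL (set 1) is at 6.31 there and at 2307 in the control.

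SCG5 encodes 7B2, a granule protein that acts as a chaperone and inhibitor of prohormone convertase 2. Its only probe set gave a signal of 3096 with the microRNA against 104 in the control. The control signal lay just above that array's median of 93.9, at percentile 51.8 of its probe sets, and the miR-127-3p signal lay at percentile 94.5. The difference was 29.2-fold, and its log2 ratio was 4.87, which ranked 12 from the highest of 11985 genes. A fold here is 2 to the power of the centred log2 ratio.

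SCG2 encodes secretogranin II, a granin that is the precursor of secretoneurin. It gave 3595 with the microRNA against 399 in the control, at percentiles 95.3 and 72.2. Both signals were well above the array medians, so this 8.91-fold difference does not depend on a dim array. Its log2 ratio was 3.16, rank 41 from the highest.

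The chromogranins differed in whether they were measured above the array medians. CHGB, which encodes chromogranin B, gave 348 with the microRNA against 143 in the control, a 2.40-fold difference with a log2 ratio of 1.26. CHGA, chromogranin A, the usual tissue marker of neuroendocrine cells, gave 20.9 with the microRNA against 28.6 in the control. Both CHGA signals were below the array medians, at percentiles 25.5 and 27.7, so no fold is given. SCG3, secretogranin III, which binds chromogranin A and granule membranes, gave 27.7 with the microRNA against 3.59 in the control. These SCG3 signals too were below both medians and have no fold.

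VGF encodes a granin-like precursor that nerve growth factor induces in neurons. Its only probe set gave 412.5 with the microRNA against 127.5 in the control, at percentiles 73.3 and 55.0. The difference was 3.19-fold, with a log2 ratio of 1.67 and rank 165 from the highest. The probe set carries the suffix x, which marks probes that can bind other transcripts too, so the share of VGF itself in the signal is uncertain.

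The start regions of 6 of the 10 members were in the RefSeq promoter table used here (SCG3, SCG5, CHGA, VGF, PCSK1 and CPE), as 250 bases before to 50 bases after the gene's start. They were searched on both strands for the cAMP response element TGACGTCA, which binds factors of the CREB family, and for its core TGACG, which also lies within the full element. Of the 6 members, 3 held the full element (CHGA, VGF and PCSK1), against 1.98% of 27305 promoters of the same length, 1 per gene. PCSK1 has 2 start regions in the table, and the element was in 1 of them. The core was present in at least 1 region of all 6 members and in 25.0% of those promoters. The regions of 4 members are shown to set members with different values side by side, with the matches in capitals. VGF was higher with the microRNA and its full element starts 79 bases before the gene's start. SCG5 was higher too and holds the core alone, 17 bases before the start. CHGA, dim on both arrays, holds the full element 54 bases before the start. CPE, within 2-fold, holds the core at 221 and 120 bases before the start. A match is a stretch of letters and not a measured site, and the searched windows leave out all other regulatory sequence.
VGF, chr7:101165520-101165819, - strand, GRCh38.p14: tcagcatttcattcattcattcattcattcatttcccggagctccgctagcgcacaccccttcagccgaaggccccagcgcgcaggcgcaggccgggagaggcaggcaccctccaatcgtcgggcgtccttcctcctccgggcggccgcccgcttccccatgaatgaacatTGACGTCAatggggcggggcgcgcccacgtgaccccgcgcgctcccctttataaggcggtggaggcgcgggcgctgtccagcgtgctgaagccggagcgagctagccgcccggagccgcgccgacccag
SCG5, chr15:32641460-32641759, + strand, GRCh38.p14: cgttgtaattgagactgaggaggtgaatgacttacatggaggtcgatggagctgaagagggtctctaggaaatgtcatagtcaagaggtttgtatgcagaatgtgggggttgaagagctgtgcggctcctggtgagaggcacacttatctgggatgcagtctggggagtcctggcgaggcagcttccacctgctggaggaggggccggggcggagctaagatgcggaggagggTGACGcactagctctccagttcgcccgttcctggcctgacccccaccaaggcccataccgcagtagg
CHGA, chr14:92922900-92923199, + strand, GRCh38.p14: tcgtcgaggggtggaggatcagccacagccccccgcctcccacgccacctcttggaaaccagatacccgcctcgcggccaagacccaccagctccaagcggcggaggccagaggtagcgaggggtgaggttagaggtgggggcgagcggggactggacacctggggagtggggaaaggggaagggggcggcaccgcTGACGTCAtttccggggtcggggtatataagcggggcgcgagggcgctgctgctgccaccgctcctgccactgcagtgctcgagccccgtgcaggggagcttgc
CPE, chr4:165378758-165379057, + strand, GRCh38.p14: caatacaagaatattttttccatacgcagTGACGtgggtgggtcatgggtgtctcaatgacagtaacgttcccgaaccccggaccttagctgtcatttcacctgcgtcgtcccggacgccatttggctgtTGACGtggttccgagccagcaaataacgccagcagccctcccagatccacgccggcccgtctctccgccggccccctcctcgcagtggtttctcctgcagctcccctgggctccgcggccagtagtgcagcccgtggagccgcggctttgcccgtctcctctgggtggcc
The full element was thus present both in VGF, which was past 2-fold, and in CHGA, which was below the array medians.

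CPE, the carboxypeptidase that trims peptide intermediates and also sorts cargo into granules, was the only measured processing enzyme among the members. Its brighter probe set gave 761 with the microRNA against 1129 in the control, and its log2 ratio was -0.58. Its other probe set gave 324 and 614, and its log2 ratio was -0.93. Both probe sets were dimmer with the microRNA and neither reached 2-fold. Their ratios differed by less than the SD of 0.41 that a single probe set shows around its gene, taken from 5974 pairs of probe sets of the same gene. That SD is of 1 probe set, so a difference between 2 probe sets spreads more widely. It holds no variation between cultures.

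CRH encodes corticotropin-releasing hormone, the hypothalamic peptide that starts the stress response of the pituitary and adrenal. Its brighter probe set gave 2554 with the microRNA against 94.7 in the control, where it lay at percentile 50.1, next to the array median. The difference at this probe set was 26.5-fold, and its log2 ratio was 4.73, rank 13 from the highest. The second probe set gave 283 with the microRNA against 79.4 in the control, and its log2 ratio was 1.81. Since 79.4 is below the control median, only a lower limit against that median is given, at least 2.97-fold. Both probe sets were brighter with the microRNA, but their log2 ratios lay further apart than the probe set SD of 0.41, and their mean was 3.27.

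GAL encodes galanin, a neuropeptide of neurons and endocrine cells that also occurs in tumours. Its brighter probe set gave 6.31 with the microRNA against 2307 in the control, at percentiles 13.4 and 92.6. The miR-127-3p signal was below the array median of 83.3, so GAL was at least 27.6-fold lower there. The second probe set gave 32.6 and 47.1, below both medians, so it has no fold. GAL thus ran opposite to CRH, the other peptide hormone among the members, on the same pair of arrays.

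**Figure D2:**
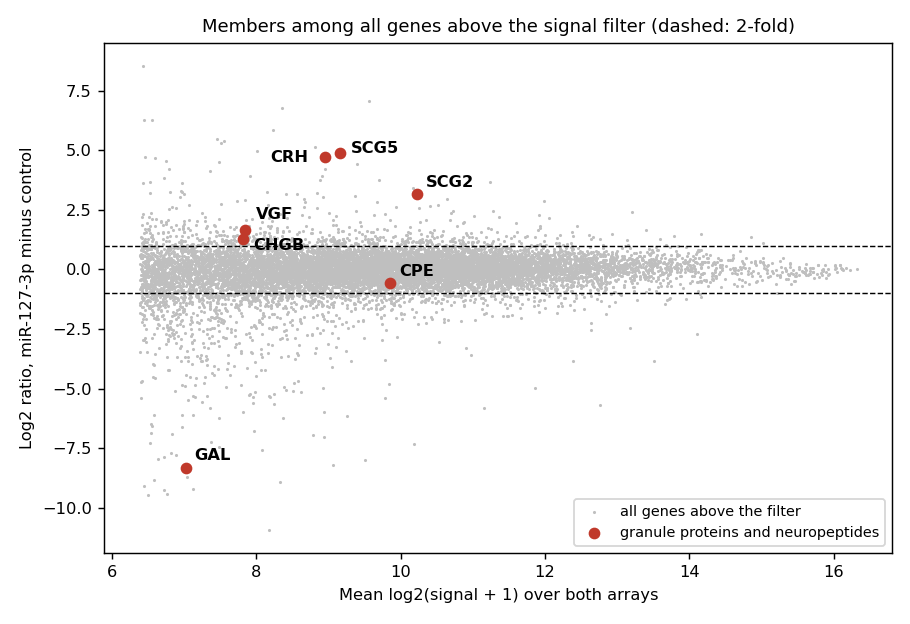
Log2 ratio (miR-127-3p minus control) against the mean log2(signal + 1) of both arrays for 11985 genes in grey and the 7 members above the filter in red, with dashed lines at 2-fold. SCG5, CRH and SCG2 lie at 4.87, 4.73 and 3.16, VGF and CHGB lie closer to the line at 1.67 and 1.26, and GAL lies at -8.31, a value that rests on a dim miR-127-3p signal.

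Receptors for the 2 peptides were dim. CRHR1 and CRHR2, the receptors of CRH, and GALR1, GALR2 and GALR3, those of galanin, were below the median of both arrays, as was CRHBP, the protein that binds CRH outside the cell. CRHBP gave the highest signal with the microRNA, 75.8 against 64.9 in the control, and GALR2 gave 6.35 against 66.4. No fold is given for any of these 6 genes.

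Other neuropeptides and peptide hormones above the filter stayed within 2-fold. Of 47 listed genes with a probe set, 9 were above the filter, none of them reached 2-fold in either direction, and their median log2 ratio was -0.24 beside 0 for all genes. ADM, the vasodilator adrenomedullin, gave 6150 with the microRNA against 3983 in the control, and its log2 ratio was 0.62. UCN, urocortin, a relative of CRH, gave 487 and 803, and its log2 ratio was -0.73. The brightest probe sets of 35 of the 47 genes were below the median on both arrays, POMC, NPY, SST and VIP among them. KISS1, NTS and TAC3 were below the filter but above the array median with the microRNA, at 195.5 against 12.0, 125 against 43.2 and 105 against 12.2. Against the control median, KISS1, the kisspeptin precursor, was at least 2.05-fold higher, NTS at least 1.32-fold and TAC3 at least 1.11-fold. With no filter, 5 genes of this list were counted as higher and 14 as lower, and all of these but KISS1, NTS and TAC3 were below the median on both arrays.

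Enzymes that process peptides differed in both directions. Of 12 above the filter, 1 was at least 2-fold higher and 2 were lower, with a median of -0.12. The shares over all genes were 5.06% higher and 8.67% lower, and the list was not tested against them. The lower genes, QPCT and PCSK5, passed the filter only through their control signals, which fixed their direction. CTSL, cathepsin L, a lysosomal protease also found in granules, gave 5954 with the microRNA against 2315 in the control, 2.55-fold higher. QPCT, which forms the pyroglutamate end of some peptides, gave 24.6 and 1000, at least 12.0-fold lower, the limit being set by the miR-127-3p array median. PCSK5, a convertase of the secretory pathway, gave 24.4 and 473, at least 5.67-fold lower, and its other 2 probe sets were dimmer with the microRNA as well. PAM, which amidates the ends of peptides, gave 26892 and 30696, and its log2 ratio was -0.20, and FURIN, the ubiquitous convertase, was at 0.76. Another PAM probe set was at -0.81. PCSK1N, the granin-like inhibitor of PCSK1, gave 14.7 with the microRNA against 94.2 in the control, below the filter.

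Genes that dock granules and drive their release differed in both directions. Of 21 above the filter, 15 stayed within 2-fold, 4 were past it in the higher direction and 2 in the lower. Their median log2 ratio was 0.09. Over all genes, 5.06% were higher and 8.67% lower by that much, and the list was not tested against these shares. PCLO, piccolo, a scaffold of the active zone, gave 2699 with the microRNA against 637.5 in the control, 4.20-fold higher, and its second probe set above the filter was at 1.92. RIMS2, a scaffold that binds the granule-bound GTPase RAB3, gave 452 and 16.2 and was at least 4.73-fold higher. It passed the filter only through its miR-127-3p signal, which fixed its direction. SNAP25, the plasma membrane SNARE of regulated release, gave 2023 and 883, 2.27-fold higher, with its 3 probe sets between 0.74 and 1.24. SYTL2, a synaptotagmin-like protein that binds RAB27, gave 918 and 375, 2.42-fold higher, and its second probe set was at 0.81.

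The lower genes of the release list were SYT1 and VAMP8. SYT1, synaptotagmin 1, the calcium sensor of fast release, gave 932 with the microRNA against 2319 in the control, 2.51-fold lower, and its second probe set was at -1.01. VAMP8, a SNARE of exocytosis in epithelial and other non-neuronal cells, gave 19.8 and 1541 and was at least 18.4-fold lower. VAMP8 passed the filter only through its control signal, which fixed its direction. CADPS2, which primes dense-core granules, gave 3.17 and 419. It fell below the filter on the mean although its control signal was above the median. PTPRN2, a granule membrane protein, was at 0.09 at its chosen probe set, but another probe set gave 1713 and 583, 2.91-fold higher with the microRNA, and the remaining one was at 0.32. RAB27B, a GTPase of granule docking, was at 0.56, with -0.01 for the other probe set above the filter, and STX1A, a SNARE, was at -0.17.

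Genes of granule formation and trans-Golgi sorting were past 2-fold about as often as all genes. Of 22 above the filter, 20 stayed within 2-fold, none was higher by that much and 2 were lower, with a median of 0.05. Among all 11985 genes, 10339 stayed within 2-fold and 8.67% were lower, so nothing particular to this list is read from its counts. SORL1, a sorting receptor, gave 100.2 with the microRNA against 1358 in the control, 13.5-fold lower, and all 3 of its probe sets were brighter in the control. VTI1A, a Golgi SNARE, was at -1.07 at its brightest probe set, but its 4 probe sets above the filter lay between -1.07 and 0.60. VTI1A was no longer past 2-fold with quantile normalization, at -0.95, or with 75th percentile scaling, at -0.99, and the mean of its probe sets was -0.09. With the loess trend removed too, SORL1 was the only lower gene counted. AP1S1, a subunit of the clathrin adaptor AP-1, was at 0.98, and at 1.07 with 75th percentile scaling, where it was counted as higher. HID1, EIPR1 and CCDC186, which act in granule maturation, were at -0.02, 0.11 and -0.59.

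**Figure D3:**
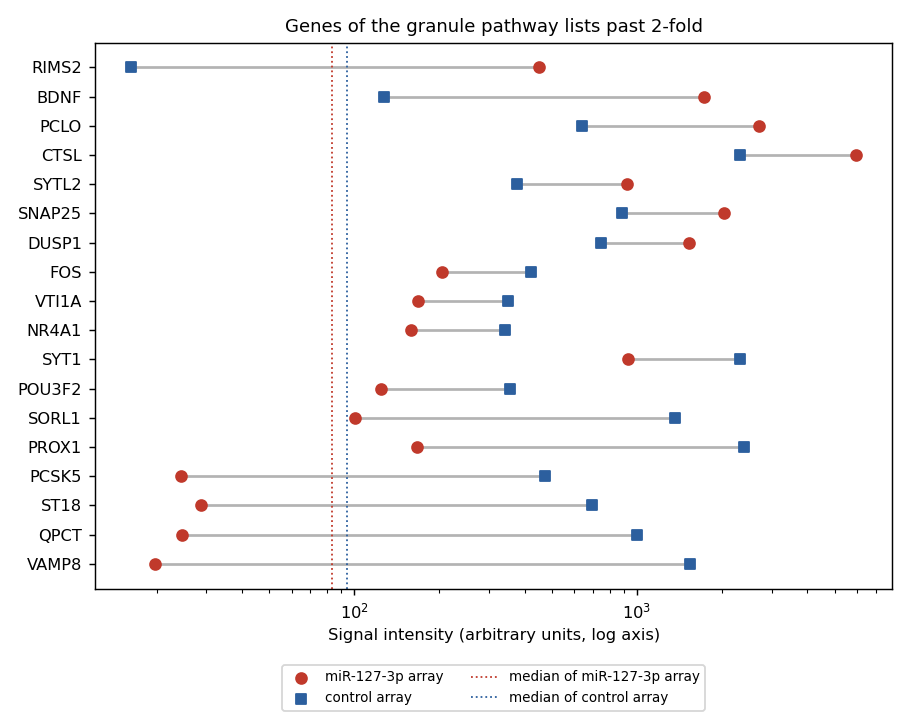
Signal intensity in arbitrary units on a log axis at the brightest probe set of the 18 genes past 2-fold in the pathway lists, ordered by log2 ratio, with circles for the miR-127-3p array, squares for the control array and dotted lines at the array medians. PCLO, SYTL2, SNAP25, CTSL, DUSP1 and BDNF were above the medians on both arrays and higher with the microRNA, while VAMP8, PCSK5, QPCT and ST18 were below the median of the miR-127-3p array.

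Regulators of neuroendocrine genes above the filter were within 2-fold or lower. REST, the repressor that silences many neuronal and granule genes in other cells, gave 619 with the microRNA against 540 in the control, and its log2 ratio was 0.19, and -0.21 at another probe set. Its corepressor RCOR1 was at -0.57. This list had 10 genes above the filter, with 3 past 2-fold in the lower direction, none in the higher one and a median of -0.55. Over all genes, 5.06% were higher and 8.67% lower by 2-fold or more, and the list was not tested against these shares. With the filter at the 75th percentile its median was 0.14, with 1 gene lower. PROX1, a homeobox factor, gave 167 and 2387, 14.3-fold lower, and all 4 of its probe sets were brighter in the control. ST18, a zinc finger factor, gave 28.7 and 690 and was at least 8.26-fold lower, though another probe set gave 102 and 34.8. ST18 passed the filter only through its control signal, which fixed its direction. POU3F2, a neural POU factor, was 2.88-fold lower. INSM1, a driver of endocrine differentiation, was below both medians, at 57.4 and 27.4.

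Genes of the cAMP and CREB pathway, which induces several granins and CRH in neurons, lay on both sides of 0. Of 20 above the filter, 2 were past 2-fold in the higher direction and 2 in the lower, with a median of 0.25. Among all genes 5.06% were higher and 8.67% lower, so nothing particular to this list is read from its counts. BDNF, a neurotrophin released from granules, gave 1720 with the microRNA against 127.5 in the control, 13.3-fold higher, and its second probe set gave 1124 and 42.7. DUSP1, a phosphatase gene, was at 1.02, while NR4A1 and FOS, immediate early genes, were at -1.11 and -1.06. These last 3 values lie close to the 2-fold line. With quantile normalization NR4A1 and FOS were at -0.99 and -0.94, so neither was counted, and with 75th percentile scaling FOS was at -0.98. With the loess trend removed DUSP1 was at 0.99 and was not counted. CREB1 itself was at 0.30, but its 7 probe sets above the filter lay on both sides of 0, from -0.35 to 0.80. CREM was at -0.67, with 4 probe sets between -1.01 and -0.44, and NR4A2 was at 0.21.

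Over the 7 pathway lists together, 94 genes passed the filter, and 7 of them were past 2-fold in the higher and 11 in the lower direction, with a median of 0.03. The shares over all genes were 5.06% and 8.67%. Nothing in these counts, or in those of each list, was tested.

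Of 13 epithelial markers with a probe set, 11 were brighter in the control, and all 6 above the filter were lower by 2-fold or more with the microRNA. EPCAM gave 30.2 and 9181, KRT19 gave 5.64 and 12674, and CDH1 gave 7.05 and 775, so these 3 defining markers were below the median of the miR-127-3p array. DSP, desmoplakin, gave 13.8 and 6991, and ESRP1, an epithelial splicing factor, gave 6.45 and 1136. EPCAM, KRT19, DSP and ESRP1 passed the filter only through their control signals. Their direction among the 6 genes above the filter was therefore fixed by the filter. The keratins KRT8 and KRT18 stayed above the median of the miR-127-3p array, KRT8 at 307 against 16926 in the control and KRT18 at 6906 against 44863. CLDN4 gave 22.4 and 201.5, and CLDN3, CLDN7 and KRT14 were below both medians. KRT5 and GRHL2 were the brighter ones with the microRNA, KRT5 at 88.2 against 4.52 and GRHL2 below both medians. In bulk RNA, fewer cells of a type and less RNA per cell cannot be told apart.

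Neuroendocrine and neuronal markers lay on both sides of 0. Of 10 neuroendocrine markers with a probe set, 5 were brighter on each array, with summed signals of 8744 with the microRNA against 8587 in the control. SYP, synaptophysin, was below both medians at 7.41 and 4.09, ENO2, the neuronal enolase, was 3.68-fold lower and UCHL1, a neuronal ubiquitin hydrolase, was at 0.39. UCHL1 accounted for most of the summed signal, with 6280 and 4761. Of 13 neuronal markers, 10 were below both medians, and the summed signals were 14789 and 10493. TUBB3, neuronal tubulin, and MAP2 accounted for most of that signal, with log2 ratios of 0.43 and 0.73. GAP43, a growth cone protein, had a log2 ratio of -1.10, or -0.91 with quantile normalization, and against the miR-127-3p median of 83.3 it was at least 1.57-fold lower. GAP43 passed the filter only through its control signal, which fixed its direction. Of 7 markers of endocrine and enteroendocrine cells, 5 were below both medians, with summed signals of 1772 and 1559. Most of this was NKX2-2, at 1529 and 1255.

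Of 15 glial and glioma markers 10 were above the filter. VIM, CD44, S100B, FABP7, SOX2 and NES were above the median on both arrays, and GFAP, the astrocyte filament, was below both at 14.9 and 34.2. SLC1A3, a glial glutamate transporter, gave 2689 with the microRNA against 73.9 in the control. It passed the filter only through its miR-127-3p signal, which fixed its direction. SOX9, SOX2 and NES were 3.11-fold, 2.37-fold and 2.04-fold lower with the microRNA. By the 2-fold rule, 1 gene of the list was higher and 3 were lower. The summed signals of the list were 90245 and 88447. VIM, at 48866 and 45584, and CD44, at 22904 and 16408, accounted for most of these sums, which say little of the other markers.

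Array quality differed little by the 3′ to 5′ control ratios. The trimmed mean signal was 500.1 on both arrays, which scaling to a shared target would set, so it says nothing of quality. The 3′ to 5′ control ratios for GAPDH were 0.97 with the microRNA and 0.98 without it. For ACTB they were 2.95 and 3.36. The log2 ratios of these genes were 0.02 and 0.05.

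The direction of each of the 7 members above the filter was the same under every scaling, pseudocount and probe set rule tried that kept the member. All settings reuse the same pair of arrays, so this is no replicate check. GAL passed the filter only through its control signal, so its direction was fixed wherever a filter was used. SCG5 ranged from 4.51 to 4.95, SCG2 from 3.06 to 3.24, VGF from 1.47 to 1.80, CHGB from 1.11 to 1.39 and CPE from -0.76 to -0.50. CRH ranged from 3.27, the mean of its probe sets, to 4.81. GAL ranged from -8.32 to -4.78, the latter with dim signals set to the array median.

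**Figure D4:**
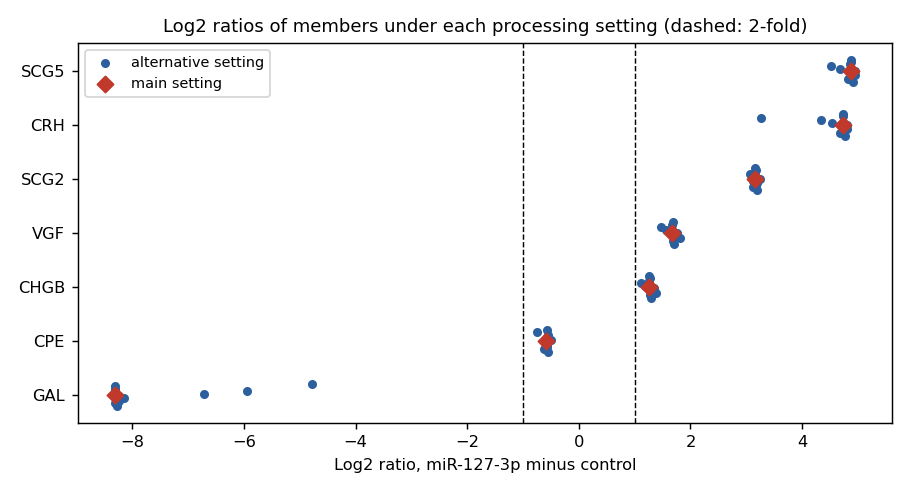
Log2 ratio (miR-127-3p minus control) of the 7 members above the filter, with a diamond for the main setting, dots for the alternative settings and dashed lines at 2-fold. SCG5, SCG2, VGF, CHGB and CPE stay close to their main values, CRH has 1 setting at 3.27, and GAL has 3 settings between -6.71 and -4.78.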

How the data were processed

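Total RNA of 2 cultures was labelled with an Affymetrix 3′ kit, per the labels' protocols, which reads mainly transcript 3′ ends. The authors deposited 1 intensity per probe set and array, on a linear scale. The summarising software and the background correction were not given in the sources used here. Detection calls were not used. GEO's platform annotation, updated through Entrez identifiers to GRCh38.p14 symbols, paired 41091 of 54613 non-control probe sets with 1 symbol, 1801 with several and 11721 with none, and genes were named only from the first kind. From the deposited intensity, log2(signal + 1) was taken. A probe set entered above the median of the mean log2 values, the brightest stood for its gene, and the median ratio over genes, 0.01, was subtracted. A gene under the filter level of 83.0 on 1 array, such as GAL, entered only through the other array, which fixed its direction. The pseudocount of 1 shrinks ratios only a little, so log2 ratios of dim signals can be large and are not cautious values. That of GAL was -8.31 with it and -4.78 with dim signals set to the array median. Where the dimmer array was below its median, the fold is a lower limit against that median, which was chosen here and is no detection call. No test between groups was possible, and the number of arrays limits the precision.

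The members and lists were chosen with earlier results of these data known. Named genes were all members, genes above the filter and past 2-fold of each list up to 6 per direction, the receptors of CRH and galanin, GAPDH and ACTB. Defining markers were named too, and other genes within 2-fold or below the filter (such as ADM, UCN, PTPRN2, CREB1, CREM, KISS1, NTS, TAC3, PAM, FURIN, PCSK1N, CADPS2, REST, RCOR1 and AP1S1) were chosen after their values were seen. The 13 alternatives changed the fold threshold, filter, scaling, pseudocount, probe set rule or floor. The procedure was run on simulated arrays with made differences of a fixed size and the same small noise at every signal level. That run checks the code, and it cannot show how reliable dim signals or single cultures are. Python 3.11.15, numpy 2.4.6, pandas 2.3.3, statsmodels 0.14.6 and matplotlib 3.10.9 were used.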

Additional observations from a re-analysis of the deposited data

How the results depend on the processing

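With 1 array a group no array could be left out, and no difference has a replicate check. No paired analysis was possible because each group has 1 array. Under the 13 alternatives no called member changed sign, though that of GAL was fixed wherever a filter was used. Member counts of 5 higher and 1 lower changed by over 1.5 times only with the filter at the 75th percentile, which removed VGF, CHGB and GAL and left 3 higher and 0 lower. VGF was lost with probe sets lacking a cross-match suffix, CHGB with a 3-fold threshold, and SCG3 was added at 2.67 with no filter. Counts over all genes, 607 higher and 1039 lower, were 1743 and 2167 at 1.5-fold, 188 and 472 at 3-fold, 2531 and 3400 with no filter and 259 and 387 with the filter at the 75th percentile. Counts over the pathway lists, 7 higher and 11 lower, were 12 and 25 at 1.5-fold, 3 and 6 at 3-fold and 24 and 42 with no filter. The filter at the 75th percentile left 2 lower, and probe sets lacking a cross-match suffix left 3 higher. Fewer or more genes entered under each filter, and the cause of other shifts was not tested.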
